A study of Drosophila melanogaster with 6 samples.

Results

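The translation factor genes of the wing imaginal disc were taken as all genes of the count table whose symbol begins with eIF, eEF or eRF followed by a digit, which gave 53 of the 17478 genes in the table. For 51 of them the identifier was found directly. The other 2, *eEF1alpha1* and *eEF5* (also known as eIF5A), are listed under older identifiers that were matched by name and coordinates. Wing imaginal discs, the larval tissue that forms the adult wing, came from female larvae at the third instar, in 3 samples per genotype, each an RNA extract of 150 pooled discs. In the *CycGΔP* samples (*UAS-CycGΔP*, *da-Gal4/+*) the driver *daughterless-Gal4*, active throughout the larva, switches on a transgene for Cyclin G without its PEST domain, a region that usually shortens the life of a protein. Control samples (*da-Gal4/+*) carry the same driver without the transgene, so effects of Gal4 itself are shared by both groups. The study asked which transcripts change when this short Cyclin G is expressed, in work on developmental noise of the wing.

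Protein synthesis passes through initiation, elongation and release. In initiation, eIF2 brings the initiator tRNA to the small ribosomal subunit, eIF3 organises that subunit, and the eIF4 factors bind the cap of the mRNA and unwind it so that the start codon can be found. The eEF1 factors then deliver each aminoacyl-tRNA, eEF2 moves the ribosome along, and eRF1 and eRF3 end the chain at a stop codon. Growing tissues such as imaginal discs need these factors in every cell, whereas *Drosophila* also has extra copies of several of them that are known from the testis or other adult tissues.

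Libraries held from 21853360 to 40059450 counted reads, and levels are given as CPM (read counts scaled to a common library total) after TMM normalization. *CycG* itself had 1021, 1011 and 899.5 CPM in *CycGΔP* replicates 1, 2 and 3, against 722, 788 and 686 CPM in the same order in control discs (log2 fold change 0.42, SE 0.0878, edgeR adjusted p-value 0.0909), and the counts do not separate the transgene from the endogenous gene. All 11 wing disc markers that were matched, such as *vg* and *nub*, were expressed, and they summed to 2103 to 2388 CPM in *CycGΔP* and 1950 to 2309 CPM in control libraries. Markers of differentiated muscle summed to 98.6 to 127.5 CPM in *CycGΔP* and 165 to 335 CPM in control libraries. Of the 8, 6 were lower at an unadjusted p-value under 0.05, beside 8.07% of all tested genes. Only *Mhc* was also lower at an adjusted p-value under 0.05 (log2 fold change −2.34, edgeR adjusted p-value 0.0449). Fat body markers ranged from 584 to 17930 CPM among the control libraries alone, with the highest sum in control replicate 1. The part of these cells in the results below was not tested. In bulk tissue, fewer cells of a type and less RNA per cell cannot be told apart.

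By edgeR at an adjusted p-value under 0.05, the factor genes that rose in *CycGΔP* discs were initiation factors, most of them subunits of eIF3, and the elongation factors *eEF1alpha1*, *eEF5* and *eEF2* passed only the unadjusted threshold. *eIF4A*, the helicase that unwinds mRNA ahead of the ribosome, rose 1.46 fold, and the eIF3 subunit genes *eIF3e*, *eIF3m*, *eIF3l* and *eIF3k* rose from 1.37 to 1.47 fold. These 5 were the factor genes past an edgeR adjusted p-value of 0.05, among the 46 that passed the filter on low counts; none was called lower. Over all 9408 tested genes, 0.691% were called up-regulated and 0.733% down-regulated. At an unadjusted p-value under 0.05, 14 of the 46 factor genes were higher and 1, *eIF2A*, was lower, where the shares over all tested genes were 6.65% and 8.07%. All 3 *CycGΔP* values lay above all 3 control values for 19 factor genes and below them for 1, against 9.92% and 12.1% of all tested genes. At an adjusted p-value under 0.1, edgeR had 8 factor genes higher and 1 lower, and 1.30% and 1.66% of all tested genes.

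Of the 46 tested factor genes, 33 lay above 0 on the log2 scale and 13 below; their median was 0.14, beside 0.01 over all tested genes, of which 52.3% lay above 0. The median difference of the 46 genes from the control mean was 0.12, 0.13 and 0.14 on the log2 scale in *CycGΔP* replicates 1, 2 and 3, and between −0.01 and 0.01 in the control replicates. All factor genes together took 6.12, 5.18 and 5.77% of the counts in the *CycGΔP* libraries and 4.59, 4.64 and 4.62% in the control libraries. Most of this difference lay in the elongation factors, which took 3.10% ± 0.0163 of control counts and 3.96% ± 0.441 of *CycGΔP* counts (SD, n = 3 each). Within them it lay mainly in 1 gene, *eEF1alpha1*, which took 1.76% ± 0.0477 of control counts and 2.39% ± 0.317 of *CycGΔP* counts. The 44 initiation factor genes took 1.45% ± 0.0129 and 1.65% ± 0.0423, respectively.

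**Figure D1:**
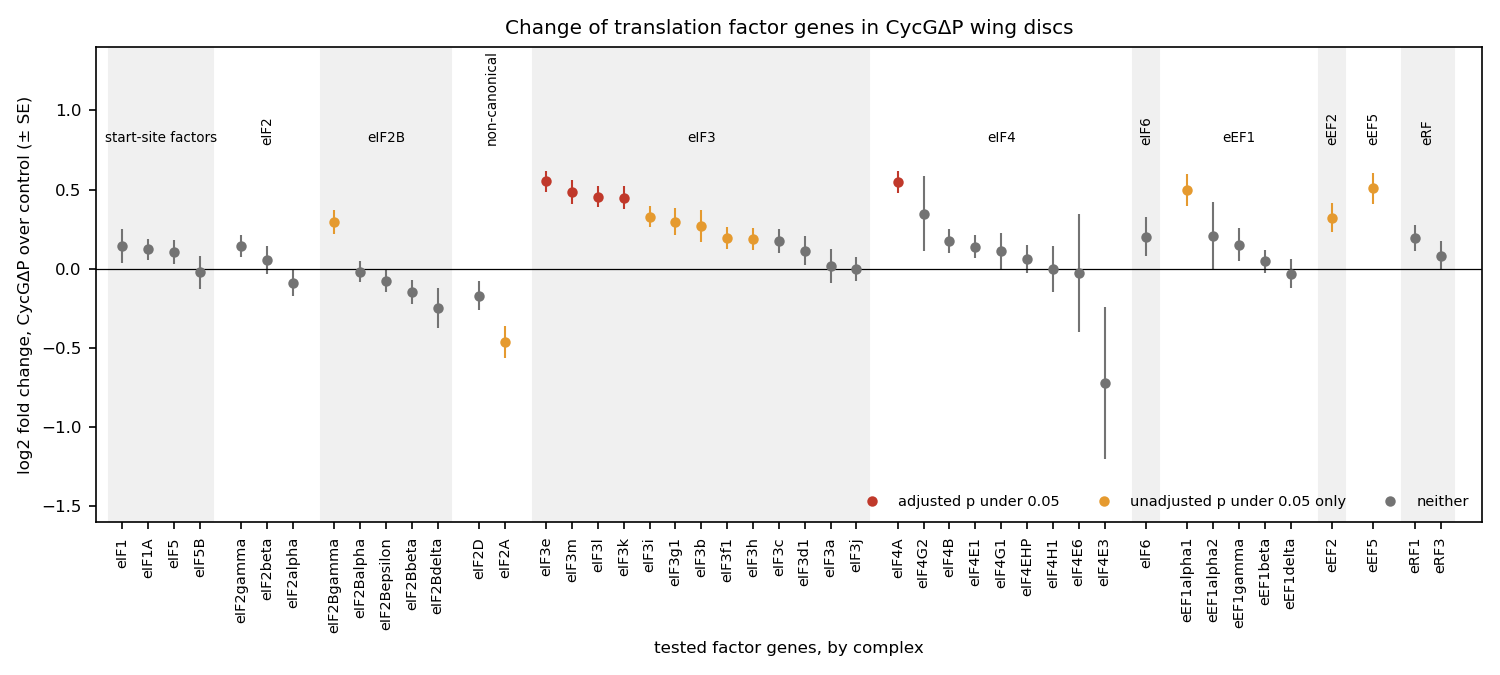
Log2 fold change of each of the 46 tested factor genes, *CycGΔP* over control, with its standard error, grouped by complex and ordered within it. The 5 genes past an adjusted p-value of 0.05 are *eIF4A* and 4 eIF3 subunits, and the highest values outside them are *eEF5* and *eEF1alpha1*.

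The calls depended on having all 6 libraries. With any 1 library left out, edgeR called 0 factor genes at an adjusted p-value under 0.05. Over all genes, these fits called 0.0831 to 0.521% higher and 0.0312 to 0.292% lower, below the shares with all 6 libraries. At an unadjusted p-value under 0.05, 11 to 18 factor genes were higher, beside 4.57 to 8.31% of all genes in these fits. At the same threshold 1 was lower in each fit except that without control replicate 1, which had 3, beside 5.35 to 9.22% of all genes. The fold changes of the 5 called genes moved little. Over these 6 fits the log2 fold change of *eIF4A* stayed between 0.49 and 0.58, with edgeR adjusted p-values from 0.0638 to 0.138. That of *eIF3k* stayed between 0.38 and 0.48. Some other factor genes moved more, such as *eIF4G2*, from 0.03 to 0.52. DESeq2, the tool used in the study, called 10 factor genes higher and 1 lower, where it called 2.51% and 3.27% of all genes. Its 10 included the 5 called by edgeR, and added *eIF3i*, *eIF3g1*, *eEF1alpha1*, *eEF2* and *eEF5*; the 1 lower gene was *eIF2A*.

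The eIF3 complex, the largest initiation factor, is built around a core of subunits with PCI and MPN domains and carries further subunits that contact mRNA and the other factors. Of its 16 genes, 13 were tested, 12 lay above 0 on the log2 scale, and the median was 0.27. *eIF3e*, a PCI subunit (chromosome 3L, 16785242 to 16786941 of dm6, minus strand), had 612, 643 and 621 CPM in *CycGΔP* replicates 1, 2 and 3, against 430, 409 and 442 CPM in control discs. The groups were well apart, and the log2 fold change was 0.55 (SE 0.0673, edgeR adjusted p-value 0.0235), the highest of all tested factor genes. *eIF3m*, also a PCI subunit (chromosome 2R, 14163066 to 14164825), had 601, 586 and 645 CPM in *CycGΔP* and 459, 434 and 417 CPM in control replicates. Its log2 fold change was 0.48 (SE 0.0749, edgeR adjusted p-value 0.0431), again with no overlap.

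*eIF3l* and *eIF3k* encode 2 PCI subunits that bind each other at the edge of the complex. *eIF3l* (chromosome 3L, 12143446 to 12146097) had 536, 504 and 529 CPM in *CycGΔP* and 391, 369 and 384 CPM in control replicates, a log2 fold change of 0.46 (SE 0.0669, edgeR adjusted p-value 0.0389). *eIF3k* (chromosome 2R, 21685283 to 21686201) had 316, 328 and 315 CPM in *CycGΔP* and 243, 216 and 243 CPM in control replicates, a log2 fold change of 0.45 (SE 0.0746, edgeR adjusted p-value 0.0477). Both sets of values were closely grouped within a genotype and did not overlap between genotypes. *eIF3k* was the gene nearest the threshold, and lost its call with RLE or upper-quartile normalization and with limma voom; without the filter on low counts *eIF3k*, *eIF3l* and *eIF3m* all lost theirs.

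A further 5 eIF3 genes passed only the unadjusted threshold. *eIF3i*, a WD-repeat subunit, had 586, 557 and 575 CPM in *CycGΔP* and 465, 441 and 464 CPM in control replicates (log2 fold change 0.33, SE 0.0656, edgeR adjusted p-value 0.0784). Its partner *eIF3g1*, an RNA-binding subunit, had 367, 315 and 327 CPM in *CycGΔP* and 273, 264 and 285 CPM in control replicates (log2 fold change 0.30, edgeR adjusted p-value 0.166). Neither overlapped between groups. *eIF3b*, the scaffold that holds these subunits, had 1357, 1077 and 1299 CPM against 1077, 1002 and 1024 CPM (log2 fold change 0.27, edgeR adjusted p-value 0.285), so *CycGΔP* replicate 2 was level with control replicate 1 and the groups were separate only beyond the printed digits. The MPN subunit genes *eIF3f1* and *eIF3h* had log2 fold changes of 0.20 and 0.19, with edgeR adjusted p-values of 0.244 and 0.275. Of the exon bases of *eIF3h*, 16.8% are shared with *senju*.

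The other 4 tested eIF3 genes overlapped between groups. *eIF3a*, the largest subunit and a PCI protein, had 655, 732 and 648 CPM in *CycGΔP* and 624, 763 and 624 CPM in control replicates, a log2 fold change of 0.02 (SE 0.106). In both genotypes replicate 2 was the highest. *eIF3c*, its PCI partner, had a log2 fold change of 0.18 (SE 0.0782, edgeR adjusted p-value 0.364), and *eIF3d1*, which can contact the mRNA cap in mammals, one of 0.11 (SE 0.0904). *eIF3j*, a loosely attached subunit, had 124 CPM in both groups.

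Budding yeast lacks orthologs of eIF3d, e, f, h, k, l and m, and this division, made after the values were seen, gives a description of how the subunits differed. The 7 genes without a budding yeast ortholog had log2 fold changes from 0.11 to 0.55, with a median of 0.45, and held all 4 calls. The 6 genes shared with budding yeast ranged from −0.0020 to 0.33, with a median of 0.22 and no call at an adjusted p-value under 0.05 by edgeR; 3 of them had an unadjusted p-value under 0.05. Among the 6 PCI subunits the values divided into the 4 called genes and the pair *eIF3a* and *eIF3c*.

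**Figure D2:**
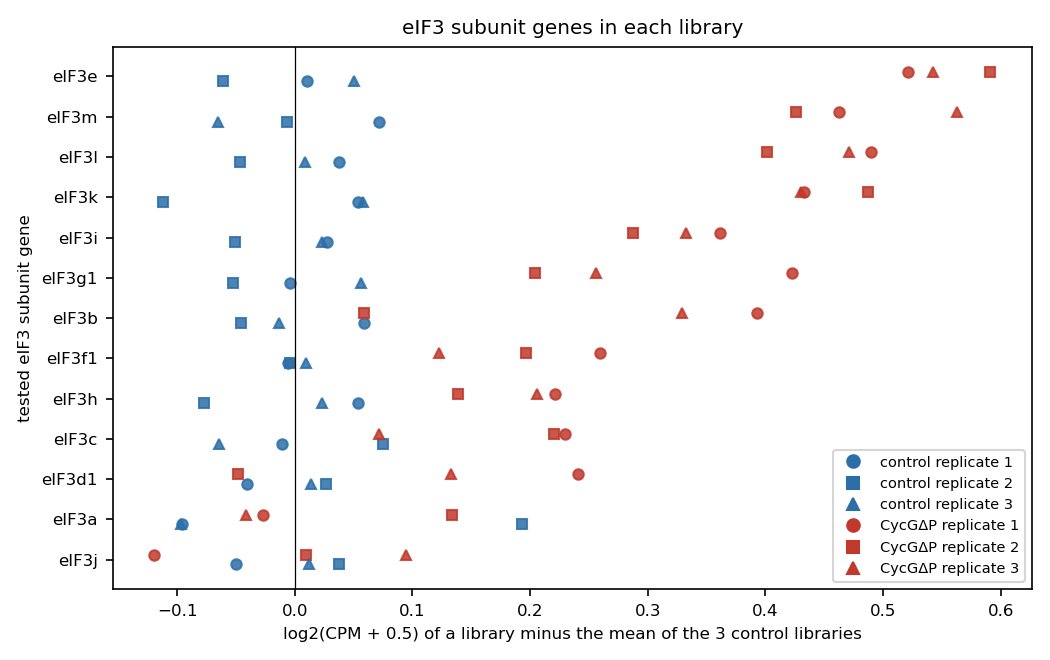
Each of the 13 tested eIF3 subunit genes in each library, as the log2(CPM + 0.5) minus the mean of the 3 control libraries, ordered by fold change. In the upper rows, *eIF3e*, *eIF3m*, *eIF3l* and *eIF3k*, all *CycGΔP* points lie right of all control points; in the lowest rows, *eIF3a* and *eIF3j*, the groups mix.

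The eIF4 factors recognise the capped mRNA. *eIF4A* (chromosome 2L, 5981764 to 5985909) had 4064, 3640 and 3690 CPM in *CycGΔP* replicates 1, 2 and 3, against 2630, 2573 and 2590 CPM in control discs. The control values differed by little, and the lowest *CycGΔP* value was far above them; the log2 fold change was 0.55 (SE 0.0704, edgeR adjusted p-value 0.0287). It was the most abundant initiation factor gene per length, at 1047 ± 11.7 CPM per kb in control discs. *eIF4A* kept its call in all the fits that used all 6 libraries without a replicate term.

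The partners of eIF4A did not pass the threshold. *eIF4G1*, the scaffold that joins eIF4A to the cap-binding protein, had 646, 840 and 688 CPM in *CycGΔP* and 673, 717 and 623 CPM in control replicates (log2 fold change 0.11, SE 0.116, and −0.0076 without *CycGΔP* replicate 2). *eIF4E1*, the main cap-binding protein, had 544, 544 and 585 CPM against 515, 483 and 519 CPM (log2 fold change 0.14, SE 0.0707, edgeR adjusted p-value 0.41). The *eIF4E1* groups did not overlap, while those of *eIF4G1* did. *eIF4B*, which stimulates the helicase, had 288, 308 and 327 CPM against 279, 260 and 279 CPM (log2 fold change 0.18, edgeR adjusted p-value 0.355). *eIF4H1*, related in role to eIF4B, had 410, 613 and 551 CPM against 524, 539 and 515 CPM, with *CycGΔP* replicate 1 lowest and *CycGΔP* replicate 2 highest of all 6 libraries.

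Per kb of exon, *eIF4A* stood at 16.6, 11.5 and 14.2 times the level of *eIF4G1* in *CycGΔP* replicates 1, 2 and 3 and at 10.3, 9.50 and 11 times in control replicates. Against *eIF4E1* it stood at 6.74, 6.03 and 5.69 times and at 4.60, 4.80 and 4.49 times, respectively. These ratios were also chosen with the values known. Neither overlapped between groups, though for *eIF4G1* the gap between *CycGΔP* replicate 2 and control replicate 3 was small. *eIF4EHP*, a cap-binding protein that represses translation and shares 7.0% of its exon bases with *Syx1A*, had a log2 fold change of 0.06 (SE 0.0906).

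**Figure D3:**
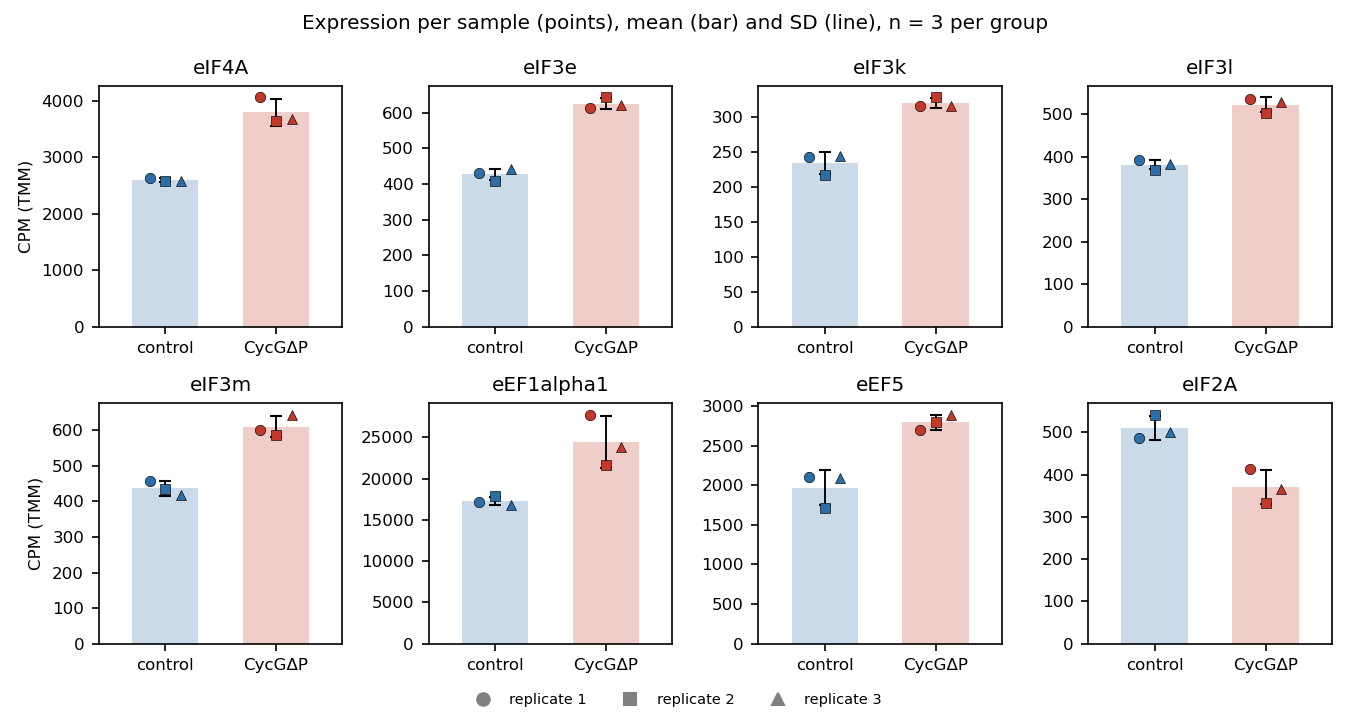
Expression in CPM of the 5 called genes and of *eEF1alpha1*, *eEF5* and *eIF2A*, with a point per sample, the mean as a bar and the SD as a line (n = 3 per group; axes start at 0). Groups are separate in all 8 panels, and *eIF2A* alone is lower in *CycGΔP* discs.

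None of the genes of eIF2 and eIF2B passed the adjusted threshold, and 1 of them, *eIF2Bgamma*, passed the unadjusted one. The 3 eIF2 genes had log2 fold changes of −0.09 (*eIF2alpha*, the subunit phosphorylated under stress), 0.05 (*eIF2beta*) and 0.14 (*eIF2gamma*, the GTPase), with edgeR adjusted p-values of 0.657, 0.801 and 0.397. *eIF2gamma* had 340.8, 322 and 351 CPM in *CycGΔP* and 304, 297 and 318 CPM in control replicates, with no overlap; 16.0% of its exon bases are shared with *Su(var)3-9* on the same strand, where reads cannot be assigned to either gene. For *eIF2alpha*, 12.6% are shared with *rngo*. Of the 5 genes of eIF2B, the exchange factor that recharges eIF2 with GTP, 4 were below 0. The exception, *eIF2Bgamma*, had 54.2, 53.2 and 60.8 CPM in *CycGΔP* and 47.5, 43.9 and 45.9 CPM in control replicates (log2 fold change 0.29, SE 0.076, edgeR adjusted p-value 0.141). Its partner in the catalytic part, *eIF2Bepsilon*, had 66.9, 70.4 and 64.5 CPM against 67.9, 74.3 and 70.7 CPM, so the groups overlapped. *eIF2Bdelta* had the lowest value of the complex, a log2 fold change of −0.25 (SE 0.126, edgeR adjusted p-value 0.416).

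*eIF2A*, a protein that in mammals can bring initiator tRNA to the ribosome without eIF2 and is not a subunit of eIF2, was the 1 factor gene whose *CycGΔP* values all lay below the controls. It lies on chromosome 3L (21824740 to 21827856) and had 413, 332 and 367 CPM in *CycGΔP* and 488, 542 and 500 CPM in control replicates. The log2 fold change was −0.46 (SE 0.0999, edgeR adjusted p-value 0.098); it did not pass the threshold with edgeR, and passed it with DESeq2 (adjusted p-value 0.00074). *eIF2D*, which also handles initiator tRNA outside the eIF2 route, had 43.8, 44.7 and 39.3 CPM against 43.2, 52.1 and 48.6 CPM (log2 fold change −0.17, SE 0.0922).

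The factors that help to select the start codon and join the subunits varied little. *eIF1*, *eIF1A*, *eIF5* and *eIF5B* had log2 fold changes of 0.14, 0.12, 0.11 and −0.02, with edgeR adjusted p-values from 0.44 to 0.936. Only *eIF1A* among them had no overlap between groups, with 390, 401 and 415 CPM against 383, 363 and 362 CPM. In the reference annotation 80.8% of the exon bases of *eIF5* are also part of *CG46312*, a gene model that is not among the counted genes. *eIF6*, which keeps the large subunit from joining too early, had 114, 130 and 112 CPM against 85.8, 114 and 110 CPM (log2 fold change 0.20, SE 0.125), with control replicate 1 the lowest. Without that library the log2 fold change of *eIF6* was 0.07.

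The most abundant factor genes were elongation factors. Per kb of exon in control discs, *eEF1alpha1* had 7012 ± 214 CPM, *eEF5* 2437 ± 276 CPM, *eEF2* 2279 ± 80.5 CPM, *eEF1gamma* 1550 ± 49.2 CPM and *eEF1beta* 1130 ± 17.4 CPM (SD, n = 3). *eEF5* and *eEF2* did not differ beyond their spread. *eEF1delta* followed below *eIF4A*, at 447 ± 31.6 CPM per kb, and *eEF1alpha2* had only 13.6 ± 3.83. The eIF3 subunits lay lower and close together, from 90.8 CPM per kb for *eIF3j* to 388 for *eIF3i*, with 12 of the 13 tested between 172 and 388. The eIF2B genes, which act in catalytic amounts, had 26.0 to 41.5 CPM per kb.

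*eEF1alpha1* encodes the GTPase that carries aminoacyl-tRNA to the ribosome. It lies on chromosome 2R (11891135 to 11895762) and had 27757, 21590 and 23880 CPM in *CycGΔP* and 17146, 17859 and 16830 CPM in control replicates, or 2.08 to 2.71% and 1.73 to 1.82% of all counts. No *CycGΔP* value reached down to the controls, and the 3 *CycGΔP* values were spread more widely (log2 fold change 0.50, SE 0.1, edgeR adjusted p-value 0.0784). The exchange factor that recycles it is made of beta, delta and gamma subunits, and their genes had log2 fold changes of 0.05, −0.03 and 0.15, with edgeR adjusted p-values of 0.786, 0.905 and 0.529. *eEF1gamma* had 3355, 2710 and 2682 CPM against 2573, 2724 and 2586 CPM, so that *CycGΔP* replicate 1 alone was above the controls, and without it the log2 fold change was 0.03. Per kb of exon, *eEF1alpha1* had 5.69, 5.48 and 6.12 times the level of *eEF1gamma* in *CycGΔP* and 4.58, 4.51 and 4.48 times in control replicates. That ratio, chosen likewise, did not overlap between groups.

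*eEF5* encodes the small factor that carries the modified residue hypusine and helps ribosomes through difficult stretches such as runs of proline. It lies on chromosome 2R (24057798 to 24059483) and had 2696, 2796 and 2891 CPM in *CycGΔP* and 2100, 1710 and 2089 CPM in control replicates (log2 fold change 0.51, SE 0.0979, edgeR adjusted p-value 0.071). *eEF2*, the translocase (chromosome 2L, 21677913 to 21682164), had 9393, 7670 and 9070 CPM in *CycGΔP* and 7249, 6806 and 6842 CPM in control replicates (log2 fold change 0.32, SE 0.092, edgeR adjusted p-value 0.175). Neither overlapped between groups, and for *eEF2* the lowest *CycGΔP* value was that of replicate 2, as for *eEF1alpha1*. Both passed the threshold with DESeq2, with adjusted p-values of 4.13e-05 and 0.04. The enzymes that make hypusine, *Dhps* and *nero*, had log2 fold changes of 0.02 and −0.06.

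The release factors did not pass the threshold. *eRF1*, which reads the stop codon, had 458, 389 and 451 CPM in *CycGΔP* and 375, 384 and 377 CPM in control replicates (log2 fold change 0.19, SE 0.0836, edgeR adjusted p-value 0.351), with no overlap. *eRF3*, its GTPase partner, had 365, 417 and 381 CPM against 342.9, 400 and 355 CPM, and the groups overlapped (log2 fold change 0.08, SE 0.0909).

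Paralogs were divided, from general knowledge, into 9 ubiquitous and 11 tissue-specific genes. All 9 ubiquitous copies were tested, 8 lay above 0, and 3 were higher at an unadjusted p-value under 0.05, beside 52.3% and 6.65% of all tested genes. Among the 11 tissue-specific copies, 7 were too low to test and the other 4 had an edgeR adjusted p-value of at least 0.522. *eIF3g2* and *eIF4E7* had 0 reads in every library, which allows up to 0.0749 to 0.137 CPM per library for counting error, taking 3 counts as the limit. *eIF3d2* had 1 read in all libraries together, *eIF3f2* 2, *eIF4E4* 3 and *eIF4H2* 6, and *eIF4E5* had 4 to 14 reads per library. Most of these copies are known from the testis, and 9 testis markers, among them *aly*, *can* and *dj*, summed to 0.342 to 1.52 CPM in these female discs, with 2 of them at 0 reads throughout. *CycB3*, also listed as a testis marker, is used by dividing cells in general and is left out of that sum. Among 3 matched markers of the male-limited list, *msl-2* and *Acp36DE* overlapped between groups, while *Acp26Aa*, a male accessory gland gene, had 99, 101 and 127 reads in *CycGΔP* replicates and 0 in every control library (edgeR adjusted p-value 0.00777). The part of this in the paralog values was not tested.

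**Figure D4:**
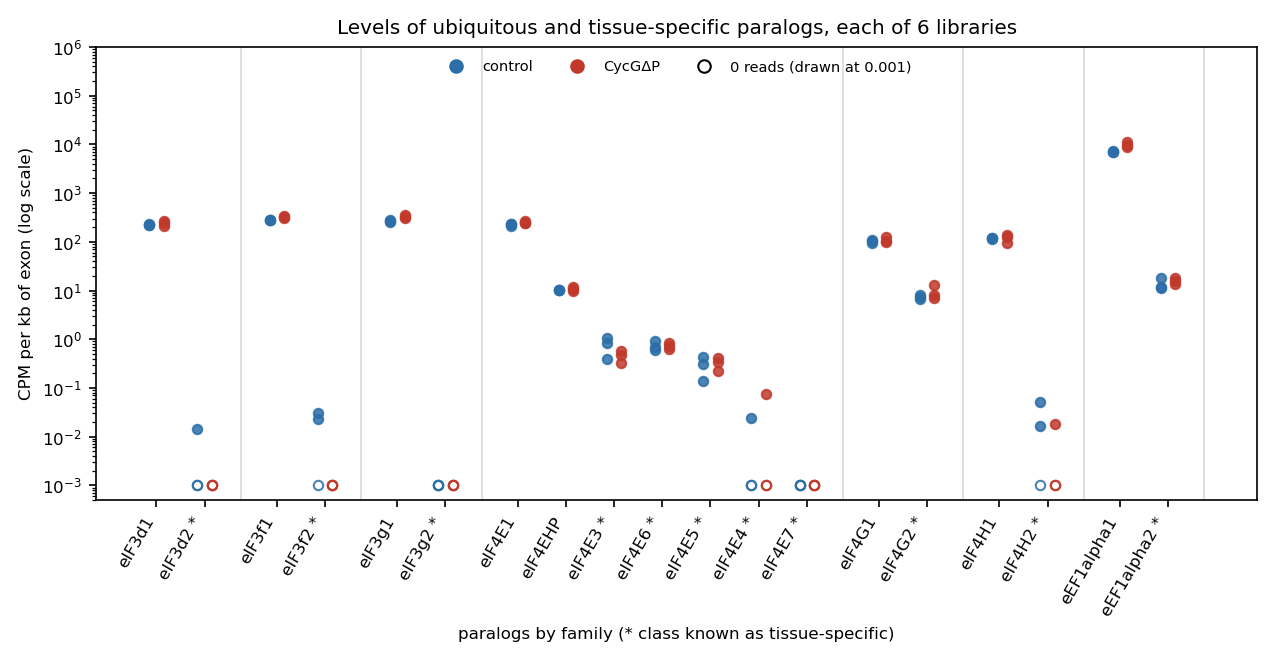
Level of each paralog in CPM per kb of exon, on a log axis, with 1 point per library and control and *CycGΔP* side by side; open points mark 0 reads. In every family the ubiquitous copy lies at or above 90 CPM per kb except *eIF4EHP*, and *eEF1alpha2*, *eIF4G2* and *eIF4EHP* lie near 10.

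The tissue-specific copies that were expressed in discs gave a minority of the reads of their families. The share was largest for *eIF4G2*, at 8.83 to 12.4%. *eEF1alpha2*, known from later development, neurons and muscle, had 41.1, 35.6 and 48.4 CPM in *CycGΔP* and 29.2, 31.5 and 47.8 CPM in control replicates (log2 fold change 0.21, SE 0.213, edgeR adjusted p-value 0.676), with control replicate 3 among the highest. With 1 library left out its log2 fold change ranged from 0.06, without control replicate 1, to 0.46, without control replicate 3. It made up 0.148, 0.165 and 0.202% of the reads of both *eEF1alpha* genes in *CycGΔP* and 0.17, 0.176 and 0.283% in control libraries (p = 0.5, exact permutation test, two-sided; the smallest p it allows is 0.1). *eIF4G2*, needed in the male germline, was nevertheless counted at 62.6, 119 and 74.1 CPM in *CycGΔP* and 66.8, 72.7 and 60.9 CPM in control replicates. *CycGΔP* replicate 2 stood apart from the other 5 libraries; the log2 fold change of *eIF4G2* was 0.35 (SE 0.238) with it and 0.03 without it, and 8.6% of the exon bases of *eIF4G2* are shared with *CG33111*. It gave 8.83, 12.4 and 9.73% of the *eIF4G* reads in *CycGΔP* and 9.03, 9.20 and 8.91% in control libraries (p = 0.4, exact permutation test, two-sided). Reads of such close copies that match both are hard to assign, and the counts hold only reads assigned without ambiguity.

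Within the eIF4E family, *eIF4E1* took 87.6 to 89.7% of the reads and *eIF4EHP* nearly all of the rest. *eIF4E3*, known from the testis, had 0.495, 0.332 and 0.593 CPM in *CycGΔP* and 1.09, 0.417 and 0.871 CPM in control replicates (log2 fold change −0.72, SE 0.481, edgeR adjusted p-value 0.522). *eIF4E6* had 9 to 18 reads per library and a log2 fold change of −0.03 (SE 0.372). The 5 copies *eIF4E3* to *eIF4E7* together made up 0.191 to 0.226% of the family in *CycGΔP* and 0.214 to 0.345% in control libraries, and these ranges overlapped.

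A list of 23 regulators and partners of the factors was examined in the same fit. Of the 22 that were tested, 1 was called up-regulated, 0 were called down-regulated by edgeR, 4 were higher and 0 lower at an unadjusted p-value under 0.05, and the median log2 fold change was 0.03. The shares over all tested genes were 0.691% and 0.733% by adjusted and 6.65% and 8.07% by unadjusted p-value. The called gene was *pix*, whose product splits ribosomes after release and is known as ABCE1 in mammals, with 666, 617 and 639 CPM in *CycGΔP* and 421, 359 and 378 CPM in control replicates (log2 fold change 0.73, SE 0.0846, edgeR adjusted p-value 0.0199). Its groups were far apart, and its fold change exceeded that of every tested factor gene. *Tctp*, which binds eEF1 subunits in mammals, had 1938, 2069 and 2024 CPM against 1630, 1526 and 1662 CPM (log2 fold change 0.32, SE 0.069, edgeR adjusted p-value 0.0925). *Rack1*, a ribosome-bound scaffold, and *NAT1*, a relative of eIF4G, had log2 fold changes of 0.26 and 0.31, with edgeR adjusted p-values of 0.178 and 0.289.

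The eIF2 kinases *PEK* and *Gcn2* had log2 fold changes of 0.01 and −0.08, the stress-induced transcription factor gene *crc* (ATF4 in mammals) 0.04, and the phosphatase subunit gene *PPP1R15* −0.03, with edgeR adjusted p-values from 0.803 to 0.965. *Thor*, the 4E-BP that blocks eIF4E, had 25.8, 18.8 and 22.9 CPM in *CycGΔP* and 37.4, 11.97 and 9.33 CPM in control replicates. The *Thor* controls spanned the *CycGΔP* values, with control replicate 1, the library with the most fat body marker reads, the highest of all (log2 fold change 0.20, SE 0.565). *pAbp*, the poly(A)-binding protein that joins eIF4G, had a log2 fold change of 0.09 (SE 0.115), and its groups overlapped. *S6k*, a kinase of the TOR pathway that acts on the ribosome and on eIF4B in mammals, had 115, 147 and 118 CPM against 103, 111 and 106 CPM, with no overlap (log2 fold change 0.25, SE 0.11, edgeR adjusted p-value 0.363). In the same list *4E-T*, *NAT1*, *pix*, *Rack1* and *Tctp* were also higher without overlap. *eEFSec* and *DENR* were lower without overlap (log2 fold changes −0.34 and −0.15, edgeR adjusted p-values 0.364 and 0.45). *cup*, an eIF4E-binding repressor of the female germline, had 0 reads in every library.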

How the data were processed

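Polyadenylated RNA of 3 *CycGΔP* and 3 control samples was sequenced as single reads of 50 bp. The authors aligned reads to dm6 with TopHat2 2.0.10. They counted reads that fell unambiguously on 1 gene, name Ensembl BDGP5 as the source of these genes, and deposited the raw counts. Whether strand was used in counting is not given in the sources used here, so counts of overlapping genes are uncertain. In the later annotation described below, 22 of the 53 factor genes share exon bases with another gene. A second deposited table of scaled counts was not used.

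The test was edgeR 4.0.16 under R 4.3.3 (TMM, expression filter by group, robust quasi-likelihood, no covariates, Benjamini-Hochberg over 9408 genes, threshold 0.05). The standard errors (SE) given with its log2 fold changes are approximate. Each was calculated back from the test, as the absolute log2 fold change divided by the square root of the F statistic. CPM were divided by merged exon length from a later dm6 annotation, so levels per kb and shares of exon bases are approximate. Of 870 genes in the study's list of genes bound by Cyclin G, 863 had identical coordinates in it. That list is not the annotation used for counting, so the check does not cover the counts. Alternatives were RLE and upper-quartile normalization, DESeq2 1.42.0, voom in limma 3.58.1, other filters and thresholds, a replicate block and each library left out. Scripts were tested on simulated data. The members, lists and the rule for named genes (all factor genes, with values per sample for those under an unadjusted p-value of 0.05, for paralogs and for the extremes of a complex) were chosen with earlier results of these data known. Total counts per library were 21853360 to 40059450, and replicates came from separate crosses.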

Additional observations from a re-analysis of the deposited data

How the results depend on the processing

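Every log2 fold change of the 5 called genes kept its sign under all 13 alternatives. At an adjusted p-value under 0.1, 8 factor genes were higher and 1 lower (1.30% and 1.66% of all tested genes). RLE, upper-quartile and voom fits each called 4 higher, all among the 5, beside 0.68, 0.627 and 0.68% of all genes. A minimum of 10 counts in every sample called 5, beside 0.78%. DESeq2 called 10 higher and 1 lower, beside 2.51% and 3.27% of all genes. With no filter beyond 1 count edgeR called 2 higher, beside 0.337% (11 at an unadjusted p-value under 0.05, beside 5.04% of all genes). With each library left out, the number called higher was 0 in all 6 fits, beside 0.0831 to 0.521% of all genes. The median over all tested factor genes was 0.16 with upper-quartile normalization, 0.13 with DESeq2 and 0.12 without the filter, and 0.10 to 0.14 with 1 library left out. Over the same 6 fits the median was 0.20 to 0.34 for eIF3, 0.033 to 0.20 for eEF1, −0.0030 to 0.12 for eIF2 and −0.13 to −0.046 for eIF2B.

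Signs changed only for genes whose log2 fold change was smaller than its standard error. With upper-quartile normalization the log2 fold changes were 5.7e-05 for *eIF2Balpha*, 0.016 for *eIF3j* and 0.016 for *eIF4H1*. With at least 10 counts in every sample they were 0.0047 for *eIF3j* and 0.0053 for *eIF4H1*, with no filter −0.0051 for *eIF3a*, and with voom 0.026 for *eIF4E6*. With 1 library left out, the ranges were −0.0016 to 0.095 for *eEF1beta*, −0.079 to 0.030 for *eEF1delta*, −0.070 to 0.020 for *eIF2Balpha*, −0.0030 to 0.12 for *eIF2beta*, −0.050 to 0.11 for *eIF3a*, −0.053 to 0.048 for *eIF3j*, −0.17 to 0.15 for *eIF4E6*, −0.011 to 0.14 for *eIF4EHP*, −0.0076 to 0.18 for *eIF4G1*, −0.13 to 0.14 for *eIF4H1* and −0.097 to 0.054 for *eIF5B*. The cause was not tested.

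For same-numbered samples of the 2 groups, deviations from the group mean had correlations of −0.10, −0.18 and −0.13. For the other pairs of a *CycGΔP* and a control sample they ranged from −0.092 to 0.24. With deviations centred on the mean of only 3 samples per group, these values cannot decide whether the samples were paired. With the replicate block, edgeR called 0 factor genes and 2 genes of 9408, while 14 factor genes were higher at an unadjusted p-value under 0.05, beside 7.56% of all genes.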
